A study of Rattus norvegicus with 12 samples.

Results

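The mitochondrial ribosomal proteins were taken as every transcript whose gene name starts with Mrpl or Mrps followed by a number. The rule found 75 of the 18752 transcripts listed, which belong to 69 of 17301 gene names, 41 of them Mrpl (large subunit by symbol) and 28 Mrps (small subunit by symbol). Of these, 67 genes (39 Mrpl and 28 Mrps) were above 0 in all 12 samples and were tested. The rule uses the name alone and no measured value.

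The mitochondrial ribosome sits in the matrix, largely at the inner membrane, and makes the few proteins that mitochondrial DNA encodes, all of them core subunits of the respiratory chain and ATP synthase. Its rRNA comes from mitochondrial DNA, whereas all of its proteins are encoded in the nucleus, made in the cytosol, and imported. Cardiac myocytes are rich in mitochondria, and inherited defects in several of these proteins cause cardiomyopathy in humans.

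ARVMs (adult ventricular myocytes of Sprague Dawley rats, plated on laminin and kept in Medium M199 with albumin, a lipid concentrate, butanedione monoxime, insulin, transferrin, and selenium) were transduced at 50 MOI with Ad-h-NR4A2 or, as control, with Ad-GFP, an adenovirus for eGFP. Ad-h-NR4A2 carries the human cDNA of the nuclear receptor NR4A2 behind the CMV promoter, which is active in most cell types. RNA was taken 48 h later, in 6 samples per group numbered 24 to 29, from independent experiments with different rats. The comparison asks what NR4A2 overexpression does to the transcriptome of the unstimulated myocyte.

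Depth was 18800000 to 28000000 fragments in Ad-GFP and 21500000 to 27300000 in Ad-h-NR4A2. Nr4a2 ranged from 0.626 to 1.40 FPKM (fragments on a transcript, scaled to its length and to the depth of the sample) in Ad-GFP and from 445.4 to 592 FPKM in Ad-h-NR4A2, so that the groups did not overlap. Its log2 difference was 9.10 ± 0.17 (SE, n = 6 per group, limma, Benjamini-Hochberg adjusted p = 6.59e-13). The transcript listed is that of the rat, whereas the vector carries the human cDNA. How much of this value came from each was not tested. The 7 cardiomyocyte markers summed to 28830 to 35790 FPKM in Ad-GFP and 25320 to 30670 FPKM in Ad-h-NR4A2, and 5 of the 7 were lower (Myh6, Myh7, Tnnt2, Ryr2, and Myl2). Markers of fibroblasts (6 genes, with Col1a2 at 0 throughout), endothelial cells (4), and smooth muscle (3) each summed to at most 30.1 FPKM in any sample; Col3a1 and Myh11 were lower, and none of these markers was higher. With the sample number as a block, Tnni3, Col1a1, Pdgfra, and Kdr were called lower as well. Of 3 macrophage and leukocyte markers, Csf1r was higher (mean of 10.1 against 40.2 FPKM), whereas Cd68 and Ptprc stayed at or below 0.752 and 0.0489 FPKM, and the 3 summed to 5.94 to 17.3 FPKM in Ad-GFP and 37.0 to 44.1 FPKM in Ad-h-NR4A2. The part of these marker shifts in the results for the ribosomal genes was not tested, and in bulk RNA fewer cells of a type and less RNA per cell cannot be told apart.

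Most mitochondrial ribosomal protein genes differed little between the groups. With NR4A2, 18 of the 67 genes rose, by 8.40% to 38.5% of the mean FPKM, and 1 fell, Mrpl14 (limma on log2(FPKM + 0.1), Benjamini-Hochberg adjusted over 10950 genes, below 0.05). This is 26.9% of the members higher, against 19.3% of all genes tested, and 1.49% lower, against 21.7%. In either direction the share of members called was 28.4%, below the 40.9% of all genes. Of the 67 members, 0 passed the further limit of a 1.5-fold ratio of the means in limma, which 15.2% of all genes passed, although 27 had an unadjusted p below 0.05 (26 higher and 1 lower; 49.1% of all genes). A fit that also took the sample number as a block, since same-numbered samples deviated together, called 32 members higher and 3 lower (Mrpl14, Mrps27, and Mrps5), where 27.1% and 32.3% of all genes were called. That is 35 of 67 members in either direction, against 59.4% of all genes. After quantile normalization 13 members were called higher and 3 lower, where 2101 and 2556 of the 10950 genes were called. The share of members called higher was then about that of all genes.

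The members lay in a narrow band. Their median log2 difference was 0.079, against -0.025 over all genes tested, and 55 of the 67 were above 0. After quantile normalization the members' median was 0.042, against -0.037 over all genes. The SD of the log2 differences was 0.12 over the members and 0.57 over all genes. The narrow band was not particular to the members. The SD was 0.15 over the cytosolic ribosomal protein genes and 0.13 over the subunits of oxidative phosphorylation. The members' log2 differences ran from -0.16 (Mrpl14) to 0.47 (Mrps34). Log2 differences on this scale slightly understate the change of genes with low FPKM.

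**Figure D1:**
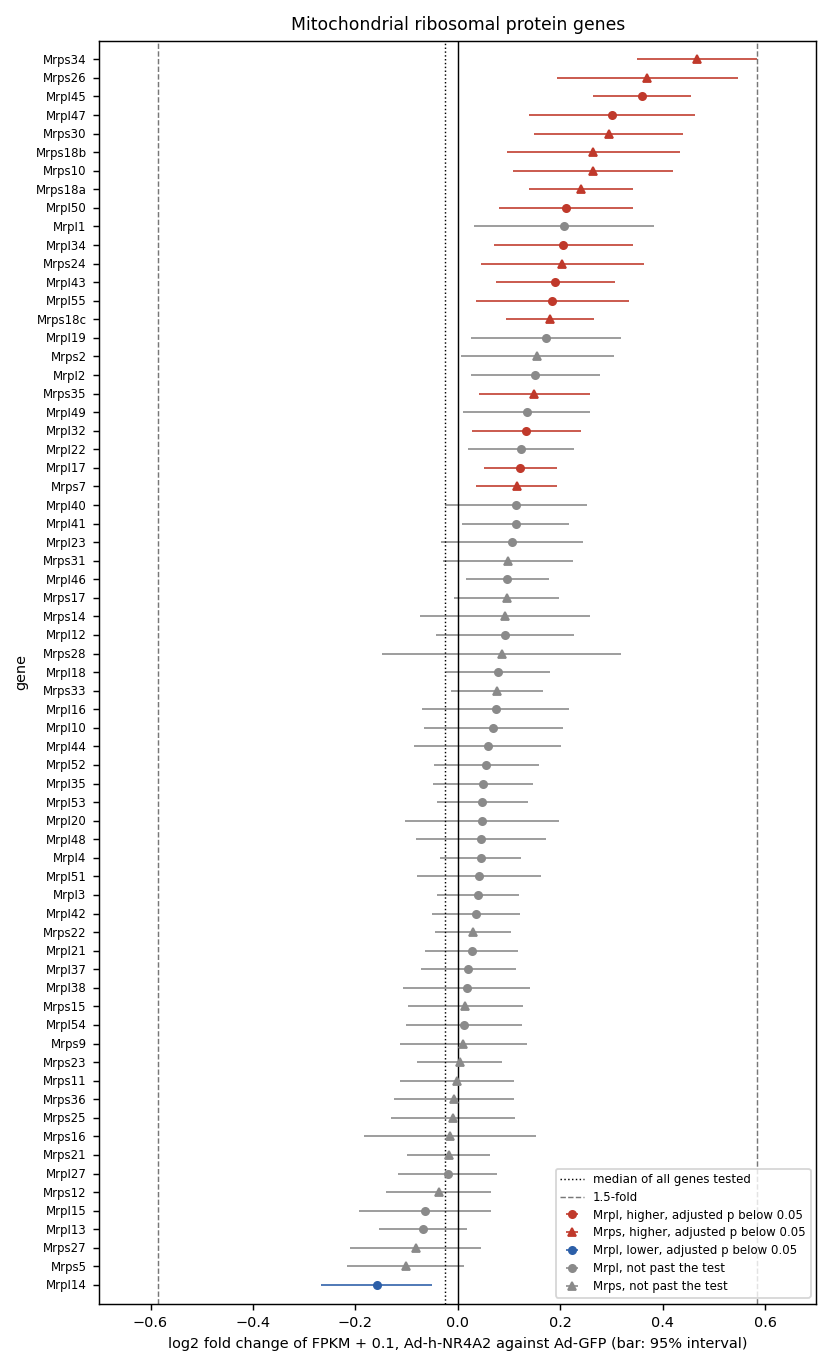
Log2 difference between Ad-h-NR4A2 and Ad-GFP for each of the 67 tested mitochondrial ribosomal protein genes, in order of size, with limma 95% confidence intervals and colors for genes called higher, lower, or not called. The 18 genes called higher and Mrpl14, called lower, all stay within the 1.5-fold lines at a log2 of 0.585 on either side.

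Of the 48 members that were not called, all had a 95% confidence interval within 1.5-fold in either direction, and the widest bound was a log2 of 0.38. The SE of the members' log2 differences had a median of 0.054, against 0.091 over all genes. Over the 6 Ad-GFP samples the CV had a median of 6.15% for the members and 10.6% for all genes tested. For the 43 members whose FPKM could be turned back into fragments, each value rested on 480 to 5517 fragments.

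Summed over the members, the Ad-GFP samples lay at 5695 to 6057 FPKM (median of 6010) and the Ad-h-NR4A2 samples at 5917 to 6511 FPKM (median of 6322). The ranges overlapped, yet within each of the 6 same-numbered pairs the sum was higher with NR4A2, by 2.50% to 11.1%. The total FPKM over all transcripts was also higher with NR4A2 in each pair (in pair 25, 726896 and 751925). As a share of that total the members rose in each pair too, but by less. Their share was 0.803% to 0.855% in Ad-GFP and 0.826% to 0.874% in Ad-h-NR4A2. The median log2 difference of the members was above 0 in 6 of 6 pairs as well, from 0.034 in pair 24 to 0.14 in pair 25. Between 45 and 60 of the 67 members were higher in a pair. By comparison, the median over all genes lay between -0.041 and 0.0021 in these pairs.

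Single members were also followed through the pairs. Of the 67, 25 were higher with NR4A2 in all 6 pairs and 4 were lower in all 6 (Mrpl14, Mrpl15, Mrps27, and Mrps5), where 24.1% and 29.1% of all genes did so. For 6 members every Ad-h-NR4A2 sample was above every Ad-GFP sample (Mrpl17, Mrpl45, Mrps18a, Mrps18c, Mrps26, and Mrps34; 10.9% of all genes), and for Mrpl14 every one was below (10.6% of all genes).

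The 4 members with the largest rise that had a promoter entry in RefSeq (assembly GRCr8) are Mrps26, Mrpl45, Mrpl47, and Mrps30, and their promoters are shown because promoters of this gene class are known for sites of nuclear respiratory factor NRF1, of ETS factors such as GABP, and of YY1. Each window covers 170 bases before and 30 from the RefSeq start, at chr3:138222154-138222353 (plus strand, Mrps26), chr10:82804869-82805068 (plus strand, Mrpl45), chr2:117447332-117447531 (minus strand, Mrpl47), and chr2:52195875-52196074 (minus strand, Mrps30). They are written 5′ to 3′ on the gene's strand, and capitals mark a match of a searched motif on either strand.
Mrps26: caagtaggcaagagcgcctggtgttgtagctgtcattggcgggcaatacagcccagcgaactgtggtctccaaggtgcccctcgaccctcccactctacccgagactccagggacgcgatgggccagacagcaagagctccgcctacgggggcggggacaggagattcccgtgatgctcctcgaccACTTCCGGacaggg
Mrpl45: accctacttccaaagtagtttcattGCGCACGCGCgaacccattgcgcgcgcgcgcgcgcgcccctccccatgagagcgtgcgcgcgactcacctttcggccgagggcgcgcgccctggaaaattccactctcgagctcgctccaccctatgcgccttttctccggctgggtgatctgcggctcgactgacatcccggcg
Mrpl47: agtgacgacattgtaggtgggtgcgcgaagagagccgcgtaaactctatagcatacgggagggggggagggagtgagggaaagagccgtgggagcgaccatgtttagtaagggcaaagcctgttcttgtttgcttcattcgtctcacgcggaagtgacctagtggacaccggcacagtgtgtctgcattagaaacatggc
Mrps30: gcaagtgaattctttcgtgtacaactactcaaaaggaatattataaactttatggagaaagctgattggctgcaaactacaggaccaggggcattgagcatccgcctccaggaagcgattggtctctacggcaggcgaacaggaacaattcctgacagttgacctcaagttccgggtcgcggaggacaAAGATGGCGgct

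The letters searched on both strands were CCGGAAGT (ETS), GCGCA followed by any base and GCGC (NRF1), and AAGATGGCG (YY1), and no match of one overlapped a match of another in a member. In the windows printed, Mrps26 shows an ETS match on the opposite strand, Mrpl45 an NRF1 match, and Mrps30 a YY1 match, whereas Mrpl47 holds none of these letters. The search covered the whole RefSeq entry, which reaches beyond the printed window on both sides, and the NRF1 match of Mrps26 and a further one of Mrpl45 lie in part or wholly outside what is printed. Promoter entries were matched by symbol for 54 of the 69 members and not for 15, Mrps34 among the latter. Of the 54, 23 (42.6%) held at least 1 of the 3 motifs, against 9.03% of all 33469 promoters in the table. By motif, ETS letters were found in 8 of 54 (14.8%, against 3.81% of all promoters), NRF1 letters in 8 (14.8%, against 4.25%), and YY1 letters in 9 (16.7%, against 1.73%). Members were counted by gene, whereas all promoters were counted by entry and whether or not the gene is expressed in these cells. The shares therefore differ in unit and in kind of gene, and the differences were not tested.

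Split by call, the NRF1 letters were in 5 of 14 promoters of members called higher (Mrpl17, Mrpl32, Mrpl45, Mrps18b, and Mrps26) and in 1 of 37 of those not called (Mrpl44). The promoter of Mrpl14, which fell, held them too. YY1 letters were in 4 of 14 and 4 of 37, and ETS letters in 2 of 14 and 6 of 37. The split uses the calls of the fit without the block, and the differences in it were not tested. With the block 32 members were called higher, and none of those added had a promoter entry with the NRF1 letters. The share with these letters among members called higher is therefore smaller with the calls of the block. These are counts of letters in a short window and give no binding.

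Among proteins of the small subunit, Mrps34 (Rn5 chr10:14073017-14074148), which has no bacterial homolog and is needed to keep the small subunit stable, changed most. It was at 58.7, 64.5, and 67.8 FPKM (lowest, median, and highest) in Ad-GFP and at 77.5, 90.2, and 97.3 FPKM in Ad-h-NR4A2. The groups did not overlap, and the log2 difference was 0.47 ± 0.055 (SE, n = 6 per group; limma, Benjamini-Hochberg adjusted p = 1.57e-05). The mean rose by 38.5%, on 884 to 1872 fragments a sample.

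Mrps26 (Rn5 chr3:129591392-129593055), likewise a small-subunit protein without a bacterial homolog, was at 26.7, 31.8, and 33.7 FPKM in Ad-GFP and at 34.2, 39.6, and 45.5 FPKM in Ad-h-NR4A2. The lowest Ad-h-NR4A2 sample stood just above the highest Ad-GFP sample. The log2 difference was 0.37 ± 0.082 (limma, Benjamini-Hochberg adjusted p = 0.00269). Mrps10 (Rn5 chr9:14558418-14572144), the homolog of a bacterial small-subunit head protein, ranged from 32.4 to 43.6 FPKM (median of 36.2) in Ad-GFP and from 42.1 to 48.4 FPKM (median of 43.9) in Ad-h-NR4A2. These ranges overlapped, and the log2 difference was 0.26 ± 0.072 (limma, Benjamini-Hochberg adjusted p = 0.0103), with a higher value in 6 of 6 pairs.

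Mrps18a, Mrps18b, and Mrps18c are paralogs that descend from 1 bacterial small-subunit protein, and all 3 rose, with a median log2 difference of 0.24. Of all genes tested, 19.3% were called higher. Mrps18a (Rn5 chr9:16120949-16150048), which despite its symbol is built into the large subunit, was at 93.3, 102.5, and 106.6 FPKM in Ad-GFP and at 110.7, 117.5, and 129.4 FPKM in Ad-h-NR4A2. The groups were apart, with a log2 difference of 0.24 ± 0.047 (limma, Benjamini-Hochberg adjusted p = 0.0011). Mrps18c (Rn5 chr14:10388657-10394875) was at 55.7, 57.9, and 60.8 FPKM in Ad-GFP and at 62.0, 65.8, and 69.3 FPKM in Ad-h-NR4A2. It too showed no overlap (log2 difference of 0.18 ± 0.040, limma, Benjamini-Hochberg adjusted p = 0.00269). Mrps18b (Rn5 chr20:5442393-5448452), the most abundant of the family, was at 152.5, 167.9, and 212.3 FPKM in Ad-GFP and at 200.3, 203.1, and 229.1 FPKM in Ad-h-NR4A2. Only the highest Ad-GFP sample reached into the Ad-h-NR4A2 range, and the log2 difference was 0.26 ± 0.079 (limma, Benjamini-Hochberg adjusted p = 0.016).

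**Figure D2:**
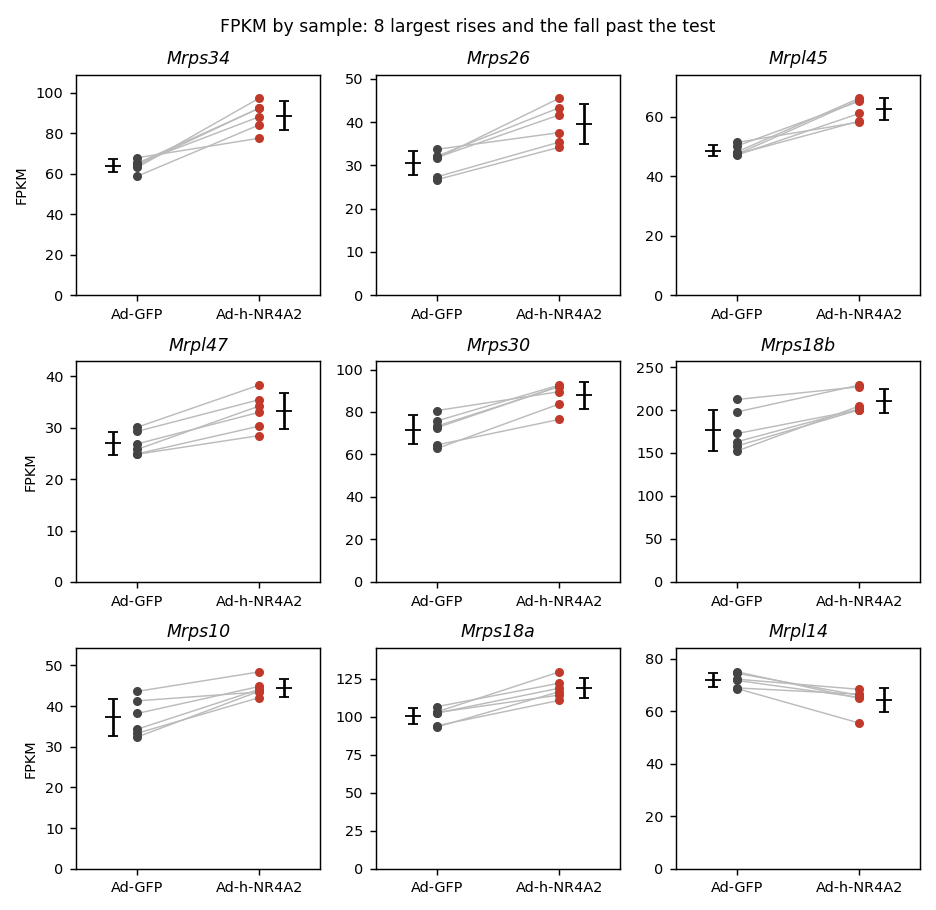
FPKM of each of the 12 samples for the members with the largest rises and for Mrpl14, with lines that join same-numbered Ad-GFP and Ad-h-NR4A2 samples and with bars for the group mean ± SD (n = 6). Every line rises except in the panel of Mrpl14, where all 6 fall.

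Mrps30 (Rn5 chr2:69417353-69424208) also belongs to the large subunit in spite of its symbol. It was at 62.9, 73.0, and 80.7 FPKM in Ad-GFP and at 76.5, 90.8, and 92.7 FPKM in Ad-h-NR4A2, so that the groups overlapped at their edges. The log2 difference was 0.29 ± 0.068 (limma, Benjamini-Hochberg adjusted p = 0.00344). Its promoter, printed above, holds the YY1 letters shortly after the RefSeq start, with their first base at position 19 of the transcript.

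In the large subunit, the proteins around the exit of the polypeptide tunnel, where the new chain leaves the ribosome, held 3 of the 8 Mrpl genes that rose. These were 3 of the 5 tested genes of this short list, where 19.3% of all genes were called higher. Mrpl45 (Rn5 chr10:85047843-85059773), which ties the ribosome to the inner membrane, was at 47.2, 47.9, and 51.4 FPKM in Ad-GFP and at 58.3, 63.2, and 66.3 FPKM in Ad-h-NR4A2. The groups were well apart, with a log2 difference of 0.36 ± 0.044 (limma, Benjamini-Hochberg adjusted p = 2.47e-05). Mrpl47 (Rn5 chr2:138764113-138790788), a neighbor of the tunnel exit with a bacterial homolog, was at 24.9, 26.3, and 30.1 FPKM in Ad-GFP and at 28.5, 33.6, and 38.3 FPKM in Ad-h-NR4A2. The groups overlapped, but each pair moved up, and the log2 difference was 0.30 ± 0.075 (limma, Benjamini-Hochberg adjusted p = 0.00592). Mrpl17 (Rn5 chr1:177657943-177659517), an abundant member with a bacterial homolog, was at 176.9, 181.0, and 195.3 FPKM in Ad-GFP and at 195.6, 199.3, and 203.2 FPKM in Ad-h-NR4A2. Its rise was small but just set the groups apart, with a log2 difference of 0.12 ± 0.033 (limma, Benjamini-Hochberg adjusted p = 0.00941). After quantile normalization it was 0.083 and no longer called.

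The other 2 of the 5 tested tunnel genes were not called in the fit without the block. For Mrpl22 the log2 difference was 0.12 (limma, Benjamini-Hochberg adjusted p = 0.054, and 0.0201 with the block), and for Mrpl23 it was 0.11 (adjusted p = 0.211). The median of the 5 was 0.12.

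The central protuberance, is the crown of the large subunit that touches the small one. None of its 5 genes (Mrpl18, Mrpl38, Mrpl40, Mrpl46, and Mrpl48) was called in limma without the block, 1 of them had an unadjusted p below 0.05, and their log2 differences ran from 0.017 to 0.11 with a median of 0.079. With the sample number as a block, 3 of the 5 were called higher (Mrpl18, Mrpl40, and Mrpl46, with limma Benjamini-Hochberg adjusted p of 0.0326, 0.0118, and 0.0253). So were 4 of the 5 tunnel genes, where 27.1% of all genes were called higher. The difference between these lists was not tested.

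The stalk recruits translation factors to the ribosome. Mrpl10, its base, was at 62.9 ± 4.88 FPKM in Ad-GFP and 66.0 ± 5.38 FPKM in Ad-h-NR4A2 (SD, n = 6; limma, Benjamini-Hochberg adjusted p = 0.414). Mrpl12, the part that also binds the mitochondrial RNA polymerase, was at 123.0 ± 8.28 FPKM and 131.3 ± 11.1 FPKM. Its log2 difference of 0.092 had a 95% interval of -0.043 to 0.23 and an adjusted p of 0.265 in limma, but 0.0336 with the block.

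Mrpl14 (Rn5 chr9:16576082-16587029), on the face of the large subunit that meets the small one and a known contact of the assembly factor Malsu1, was the only member called lower. It was at 68.6, 71.9, and 75.0 FPKM in Ad-GFP and at 55.5, 65.6, and 68.3 FPKM in Ad-h-NR4A2. All 6 Ad-h-NR4A2 samples were below all 6 Ad-GFP samples. The log2 difference was -0.16 ± 0.050 (limma, Benjamini-Hochberg adjusted p = 0.0214, and 0.00372 with the block), and the 2-sided exact permutation p of the single value was 0.00216, the smallest that 924 splits can give. Without the lowest sample, number 28 of Ad-h-NR4A2, the fall was smaller, at a log2 of -0.12. Of its 2 transcripts, the minor one was at a mean of 0.607 FPKM in Ad-GFP and 0.752 FPKM in Ad-h-NR4A2 and was not called (adjusted p = 0.449). Mrpl14 and Mrps18a, which rose, lie on the same chromosome less than a megabase apart.

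The remaining 8 members called higher were Mrps7, Mrpl32, Mrps35, Mrpl55, Mrpl43, Mrps24, Mrpl34, and Mrpl50, with log2 differences from 0.11 (Mrps7) to 0.21 (Mrpl50). Their adjusted p-values in limma ran from 0.0123 (Mrpl43) to 0.0481 (Mrpl55), and all 8 were also called with the block.

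The large and small subunits did not part clearly. By symbol, 8 of 39 Mrpl genes rose and 1 fell, with a median log2 difference of 0.074, and 10 of 28 Mrps genes rose and 0 fell, with a median of 0.089. A second count moved only Mrps30 and Mrps18a to the large subunit and kept all other members by symbol, without a check of each. It gave 10 higher and 1 lower of 41 in the large subunit and 8 higher of 26 in the small subunit. The medians were 0.079 and 0.082. Of all genes tested, 19.3% were called higher and 21.7% lower in this fit. With the block the counts by symbol were 19 higher and 1 lower for Mrpl, and 13 higher and 2 lower for Mrps. In that fit 27.1% of all genes were called higher and 32.3% lower. The ratio of summed large to small subunit FPKM was 1.39 to 1.47 in Ad-GFP and 1.39 to 1.44 in Ad-h-NR4A2. Of the 39 tested members with a bacterial homolog, 10 rose and 1 fell (median of 0.086), and of the 27 without one, 7 rose and 0 fell (median of 0.058). Mrpl55, which rose, was put in neither list. With the block these counts were 19 higher and 2 lower, and 12 higher and 1 lower.

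The list of genes linked to inherited human cardiomyopathy held 3 members and is not complete; none of the 3 was called, with or without the block. Mrpl3 lay at 120.7 ± 3.91 FPKM in Ad-GFP and 124.0 ± 5.24 FPKM in Ad-h-NR4A2, and the 95% interval of its log2 difference was -0.041 to 0.12. Mrpl44 lay at 50.7 ± 4.39 FPKM and 52.8 ± 4.26 FPKM, with an interval of -0.085 to 0.20. Mrps22 lay at 79.2 ± 1.65 FPKM and 80.9 ± 3.16 FPKM, with an interval of -0.045 to 0.10. In limma the adjusted p-values were 0.436, 0.522, and 0.535, and these 3 intervals leave room only for changes well under 1.5-fold.

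Levels, unlike changes, spread widely. Per length, the mean over the 12 samples ran from 8.03 ± 1.05 FPKM (SD; Mrps28, homolog of a bacterial small-subunit protein) to 249.3 ± 15.1 FPKM (Mrpl54, a large-subunit protein without a bacterial homolog), a ratio of 31.0. After Mrpl54 came Mrpl42 (240.5 ± 10.4 FPKM) and Mrps21 (231.9 ± 8.53 FPKM), each closer to its neighbor than the SD of the higher one. In the order of levels 57 of 66 neighboring pairs were that close. At the low end were Mrpl40 (21.5 FPKM), Mrpl1 (11.6 ± 1.39 FPKM), and Mrps28. Without the block none of these 6 was called, and with it Mrpl1 and Mrpl40 were called higher (limma, Benjamini-Hochberg adjusted p of 0.00597 and 0.0118). The members' median was 76.3 FPKM, against 11.2 FPKM over all genes tested, 849.4 FPKM over 80 cytosolic ribosomal protein genes, and 917.5 FPKM over 75 subunits of oxidative phosphorylation.

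**Figure D3:**
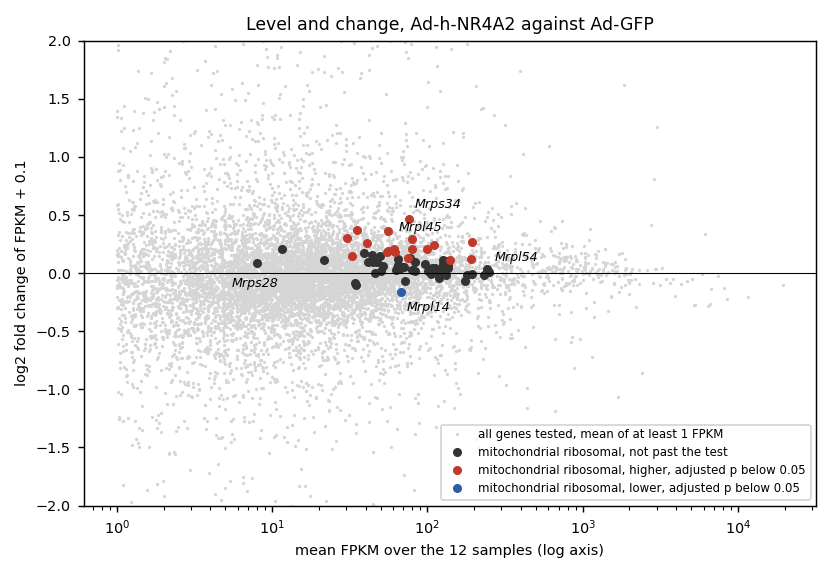
Mean FPKM over the 12 samples (log axis) against the log2 difference between Ad-h-NR4A2 and Ad-GFP, for the 67 tested members over a gray background of all genes tested with a mean of at least 1 FPKM. Members sit at 8.03 FPKM or more and, from -0.16 to 0.47, in a narrower range of differences than the background; 116 genes beyond a log2 of 2 in either direction are not drawn.

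Mrpl30 and Mrpl36 were at or near 0 FPKM and were not tested. Mrpl30 is listed at 2 loci of equal length on chromosome 9 of Rn5 with means of at most 0.142 FPKM, and Mrpl36 at 2 loci on chromosome 1 with means of at most 0.0913 FPKM. For each gene the 2 listed transcripts have the same length, their sequences were not compared here, and how reads that match both loci were counted is not given in the sources used here, so that these values are uncertain. Mrpl1 is also listed at 2 loci, at a mean of 10.8 FPKM in Ad-GFP on chromosome 8 and of 0.0841 FPKM on chromosome 14.

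Genes that build and serve the mitochondrial ribosome are encoded in the nucleus as well. In the 20 genes for its assembly and rRNA modification, of which 19 were tested, 6 rose and 1 fell, with a median log2 difference of 0.075. These are 31.6% and 5.26% of those tested, where 19.3% of all genes were called higher and 21.7% lower. Tfb1m (Rn5 chr1:45762960-45804760), the methyltransferase that modifies the small-subunit rRNA, was at 13.8, 15.5, and 17.2 FPKM in Ad-GFP and at 20.8, 24.1, and 25.3 FPKM in Ad-h-NR4A2. The groups were far apart, and its log2 difference of 0.60 ± 0.065 (limma, Benjamini-Hochberg adjusted p = 7.52e-06) made it the only gene of the 5 lists described here to pass the 1.5-fold limit. Mterfd2, a partner of the rRNA methyltransferase Nsun4, rose from a mean of 22.1 to 31.2 FPKM, without overlap (log2 difference of 0.49 ± 0.077, adjusted p = 0.000192). Malsu1, a large-subunit assembly factor, rose from 57.4 ± 4.78 to 70.9 ± 5.13 FPKM, also without overlap (adjusted p = 0.00153). The large-subunit rRNA methyltransferase Rnmtl1 and the GTPases Noa1 and Gtpbp10 rose by log2 differences of 0.31, 0.28, and 0.25. Grsf1, an RNA-granule protein that binds mitochondrial RNA, fell by 0.18 on the log2 scale.

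A list of 14 genes held initiation, elongation, and release factors and other genes of mitochondrial translation, Lrpprc and Mtfmt among the latter. Of these, 1 rose and 1 fell (7.14% each, against 19.3% and 21.7% of all genes), with a median of -0.016. With the block 2 were called higher and 5 lower, where 27.1% and 32.3% of all genes were called. Mtif3, Mtfmt, Gfm1, and Lrpprc were added to those called lower. Mrrf, the recycling factor that splits the ribosome after a protein is finished, was at 19.1, 20.6, and 22.0 FPKM in Ad-GFP and at 14.2, 16.0, and 16.9 FPKM in Ad-h-NR4A2. No sample of the groups overlapped, and the log2 difference was -0.38 ± 0.054 (limma, Benjamini-Hochberg adjusted p = 9.57e-05). Tsfm, the exchange factor of the elongation factor Tufm, rose by a log2 of 0.15 (adjusted p = 0.0387), whereas Tufm itself was at 258.9 ± 17.1 and 255.2 ± 16.2 FPKM (adjusted p = 0.786).

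Mitochondrial tRNA synthetases and the related amidotransferase had 17 tested genes, with a median of 0.12. Of these, 3 rose (Hars2, Rars2, and Tars2, by log2 differences of 0.29, 0.27, and 0.12) and 1 fell (Qrsl1, -0.24). These shares are 17.6% and 5.88%, where 19.3% of all genes were called higher and 21.7% lower. Of 10 genes for mitochondrial DNA transcription and maintenance, 2 rose (Mterfd3, 0.29, and Ssbp1, 0.17) and 1 fell (Mterf, -0.21), with a median of -0.034. The transcription factor Tfam had a log2 difference of 0.041 (adjusted p = 0.485) and the RNA polymerase Polrmt one of -0.073 (adjusted p = 0.573). Of 6 ribosomal proteins that carry another symbol, 1 rose (Ptcd3, from a mean of 46.7 to 54.1 FPKM, adjusted p = 0.0182). Over all 5 lists 13 of 66 tested genes rose and 4 fell, 25.8% in all against 40.9% of all genes, and the median was 0.043. With the block it was 22 higher and 13 lower, where 27.1% and 32.3% of all genes were called. By list it was 8 and 3 for assembly and rRNA modification, and 7 and 2 for the tRNA synthetases. It was 2 and 3 for mitochondrial DNA and 3 and 0 for the proteins with another symbol, beside the list of translation factors and other genes above.

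For comparison, the cytosolic ribosomal protein genes and the subunits of oxidative phosphorylation were counted in the same fit. Of 80 tested cytosolic ribosomal protein genes 22 rose and 0 fell in limma, with 34 at an unadjusted p below 0.05, and their median log2 difference was 0.099, beside 0.079 for the mitochondrial set. Of 75 tested subunits of oxidative phosphorylation, 2 rose and 0 fell (2.67%), with 13 at an unadjusted p below 0.05, and the median was 0.024. In this fit 19.3% of all genes were called higher and 21.7% lower, and 49.1% had an unadjusted p below 0.05. With the block the cytosolic ribosomal genes gave 46 higher and 0 lower and the oxidative phosphorylation genes 19 higher and 9 lower. Of all genes, 27.1% were called higher and 32.3% lower in that fit. The differences between these lists were not tested.

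**Figure D4:**
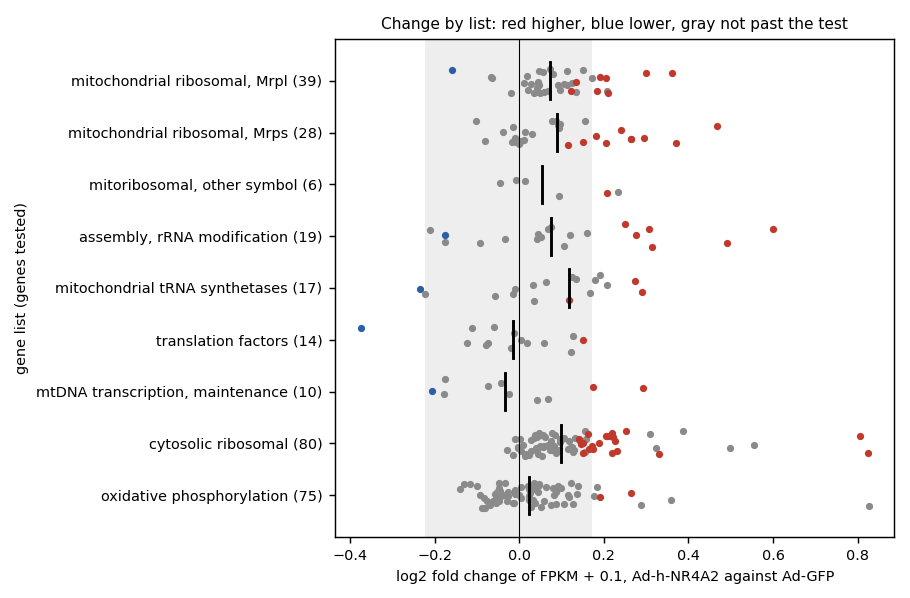
Log2 difference of FPKM + 0.1 between Ad-h-NR4A2 and Ad-GFP for each tested gene of 9 lists (red for called higher, blue for called lower, gray for not called), with a black bar at each list's median and a gray band for the interquartile range of all genes tested, -0.22 to 0.17. The assembly and rRNA modification genes reach highest among the mitochondrial translation lists, with Tfb1m at 0.60.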

How the data were processed

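RNA of ARVMs (6 Ad-GFP and 6 Ad-h-NR4A2 samples) had been sequenced as stranded, paired-end mRNA libraries in 1 pooled run. STAR (alignment to Rn5) and Cufflinks (quantification of RefSeq transcripts) had been run by the authors, who deposited 1 FPKM value per transcript and sample. Whether counting used strand is not given in the sources used here. The deposited confidence limits, nearly all equal to the FPKM itself, were not used. No member value carried a failed status.

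For each gene name the transcript of largest mean FPKM stood in. The 10950 genes above 0 in all 12 samples were fitted as log2(FPKM + 0.1) with limma 3.58.1 (lmFit, eBayes with trend) in R 4.3.3. The fit was 2-sided, with Benjamini-Hochberg adjustment, and unpaired, as the paper's Student's t-tests of 2 groups were. For its RNA sequencing the paper instead took differential expression from a Cufflinks workflow, filtered at q below 0.05 and 1.5-fold. Calls were an adjusted p below 0.05, and a second limit added a 1.5-fold ratio of the group means. Single values were also compared by a 2-sided exact permutation test over 924 splits. Tables were made in pandas 2.3.3 and NumPy 2.4.6 under Python 3.11.15, permutations in NumPy, and plots in Matplotlib 3.10.9. The fit was tested on simulated data. It called 36 of 100 genes with a simulated log2 change of 0.3 in the right direction, and 97 of 100 at 1.5. The simulated samples were not paired, and only these genes of the 10950 were changed, whereas 40.9% of all genes were called in the data. The changed genes were drawn from all genes, so that these counts do not give the power for the members.

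Depth was recovered from the low FPKM values, which are whole multiples of what 1 fragment is worth for transcripts of at least 800 nucleotides; 99.36% to 99.88% of the values checked came out whole within 0.05. Fragment numbers are given for genes with 1 transcript and cover counting error only.

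Groups and the numbers 24 to 29 come from the sample labels. Deviations from the group means correlated between same-numbered samples at 0.347 to 0.623 in the 6 pairs, so that the numbers were taken to pair the samples, and the fit with the number as a block was an alternative. Also tried were the TPM scale, quantile normalization, a pseudocount of 1 or 0.01, a fit of all gene names or of those reaching a mean FPKM of 1, no trend, other treatments of genes with several transcripts, stricter limits, and each sample left out in turn.

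The members and all gene lists were chosen with earlier results of these data known. Named were Nr4a2, the 8 largest rises and the 8 largest falls among members called, the 3 highest and the 3 lowest levels, members of the structural and disease lists, members at 0 in any sample, and examples of the other lists. The other members called, Mrpl1, and those lower with the block or in all pairs, were named after their values were seen.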

Additional observations from a re-analysis of the deposited data

Results flagged for a closer look

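In 2 of 60 groups of 6 samples checked for a sample far from the rest (29 named members and Nr4a2), the gap to the nearest sample exceeded 0.625 of the group's range, and chance gives about 1 in 20. For Mrpl14, sample 28 of Ad-h-NR4A2 was lowest at 55.5 FPKM, below the other 5 at 64.8 to 68.3 FPKM, a gap of 0.729 of the range. For Mrpl36, a gene near 0 that is listed at 2 loci in Rn5, sample 29 of Ad-GFP was highest at 0.359 FPKM, above the other 5 at 0 to 0.0660 FPKM, a gap of 0.817 of the range.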

How the results depend on the processing

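The count of members called higher was 18; it was 32 with the replicate block and 8 at an adjusted p below 0.01, and stayed within 1.5 times of 18 under the other alternatives run. All 18 were also called with the block, 14 on the TPM scale, 12 after quantile normalization (Mrpl17 among those lost), and 13 in each of the 12 fits that left out 1 sample. The count called lower was 1; it was 3 with the block, 3 after quantile normalization (Mrpl13, Mrpl14, and Mrps5), 0 without genes of several transcripts (which leaves out Mrpl14), and 0 at an adjusted p below 0.01. No member passed 1.5-fold under any alternative run. The median log2 difference was 0.079 and fell to 0.042 after quantile normalization. Leaving out each sample in turn gave 14 to 24 higher, 1 lower, 0 at 1.5-fold, a median of 0.061 to 0.101, and 9.03 to 9.23 for Nr4a2. The 24 came without sample 28 of Ad-h-NR4A2, where Mrpl12, Mrpl22, and Mrpl46 were also called (limma, Benjamini-Hochberg adjusted p of 0.0453, 0.017, and 0.0166); Mrpl22 was called as well without Ad-GFP sample 24 or 27 (0.0481 and 0.0295), and Mrpl46 without Ad-GFP sample 26 (0.0426). Small differences of members that were not called changed sign: Mrpl3 (-0.00060) and Mrps22 (-0.0070) after quantile normalization, Mrpl38 and Mrpl54 on the TPM scale (-0.0017 and -0.0072) and after quantile normalization (-0.0043 and -0.017), and, with a sample left out, Mrpl38 (-0.0097 to 0.042), Mrpl54 (-0.015 to 0.048), and Mrps21 (-0.034 to 0.0046); the causes were not tested. Among the 27 tested named members the block added the calls of Mrpl12, Mrpl18, Mrpl22, Mrpl40, and Mrpl46 and changed no other call. The fit does not weight FPKM values by depth, and the sign of differences near 0 depends on the scale.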

Other observations

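Of genes for mitochondrial ribosomal proteins that the name rule does not take, 4 were listed in another spelling, and they were picked out after their values were seen. Mrpl9, a large-subunit protein with a bacterial homolog listed as mrpl9, was at 62.8 ± 4.54 FPKM in Ad-GFP and 73.4 ± 2.79 FPKM in Ad-h-NR4A2 (SD, n = 6), a log2 difference of 0.23 (limma, Benjamini-Hochberg adjusted p = 0.00218). The entry mrpl24, for a protein near the tunnel exit, had a log2 difference of 0.17 (adjusted p = 0.0254). The stalk protein mrpl11 (0.068, adjusted p = 0.361) and Mrp63 (0.11, adjusted p = 0.0935) were not called.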
